A study of Drosophila melanogaster with 10 samples.

Results

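The brain of control Drosophila melanogaster larvae of the third instar was described from 4 bulk RNA-seq libraries, which are the control libraries among the 10 samples of a series on CG11504, the gene named vostok. The series was designed around a mutant of that gene, and its other samples were not analysed here. All 4 libraries carry the genotype control with no allele described, and their library names begin with yw. Per the labels' protocols, brains were dissected whole, RNA came from a Trizol extraction, and the library kit kept strand. Age within the instar, sex, the number of brains per library and the presence of the ventral nerve cord are not described in the labels. The labels call the libraries repeats without saying that they came from separate pools of animals, so the spread between them may be technical. Of 24278 rows with estimated counts, 17895 were gene rows, and levels are given as CPM, the estimated counts of a gene per 1000000 gene counts of its library. A CPM is a share of reads, so a long transcript gives more than a short one at the same number of molecules. Genes are therefore grouped by their share of reads and not ranked by molecules.

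The larval brain grows by the divisions of neuroblasts, neural stem cells that renew themselves and bud off smaller daughters whose progeny become neurons or glia. Many of these daughters stay immature until metamorphosis and lie beside the functional neurons and glia that serve the larva. The optic lobe adds a neuroepithelium that turns into neuroblasts and later into the visual centres of the adult. In dissected tissue the brain can carry parts of neighbouring organs, such as the ring gland, imaginal discs, fat body and circulating hemocytes. A bulk library sums all of these cells, so fewer cells of a type and less RNA per cell cannot be told apart.

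The libraries held 68875818, 81373505, 63616399 and 66730065 estimated gene counts for replicates 1, 2, 3 and 4, and gene rows took 99.4% to 99.5% of all counts. At these depths 3 counts correspond to 0.0369 to 0.0472 CPM, a floor that covers counting error only. Nuclear ribosomal RNA genes took 0.904% to 2.86% of gene counts, with the lowest value in library 4, and mitochondrial genome genes took 3.27% to 4.87%. Library 2 lay at one end of the main difference among the libraries, with library 4 nearest to it. On the first principal component of log2 levels, which held 69.1% of the variance, the scores of libraries 1 to 4 were -22.5, 41.2, -25.2 and 6.52. Values are given below for each library, and without library 2 where it decides a result.

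Defining markers of the labelled tissue were present in every library. These marker genes stood outside the rule by which other genes were named. The neuronal RNA-binding protein gene elav had 387, 607, 509 and 642 CPM in libraries 1, 2, 3 and 4. The glial homeobox gene repo had 83.1, 97.5, 85.0 and 100.3 CPM, and the neuroblast factor gene dpn had 42.0, 40.4, 40.9 and 39.7 CPM. The dpn values lay within 1.06-fold of each other, while elav spanned 1.66-fold. Of genes that mark other organs, the rhodopsin gene ninaE of the adult eye had 0 to 0.0492 CPM, near the level of 3 counts, and the germline helicase gene vas had 0.690 to 0.855 CPM. Both genes whose classical mutations name a yw strain had counts in every library. The gene yellow (y) stayed under 1 CPM, with 0.668, 0.959, 0.912 and 0.824 CPM, and white (w) had 3.62, 2.56, 3.57 and 3.94 CPM. RNA level does not show whether either gene carries a mutation. CG11504 itself had 57.7, 66.6, 55.2 and 59.7 CPM, or 59.8 ± 4.90 (SD, n = 4), with library 2 the highest.

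At a threshold of 1 CPM in each library, 8631 of 17895 genes (48.2%) were detected, and 9274 passed it in at least 1 library. Of the 643 that passed in some libraries only, 231 did so in a single one, with 62, 68, 52 and 49 genes for libraries 1, 2, 3 and 4. No count at all was found for 2823 genes, and 6063 genes had a mean above 0 and under 1 CPM. Those 6063 genes together held 0.0777% of counts. The class from 1 to under 10 CPM had 1726 genes and 0.773% of counts. The class from 10 to under 100 CPM was the widest detected class, with 5188 genes and 21.1% of counts. From 100 to under 1000 CPM there were 1946 genes, which carried 46.2% of counts. At 1000 CPM and over, 149 genes carried 31.9 ± 1.72% (SD, n = 4). The median over all genes was 1.11 CPM.

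**Figure D1:**
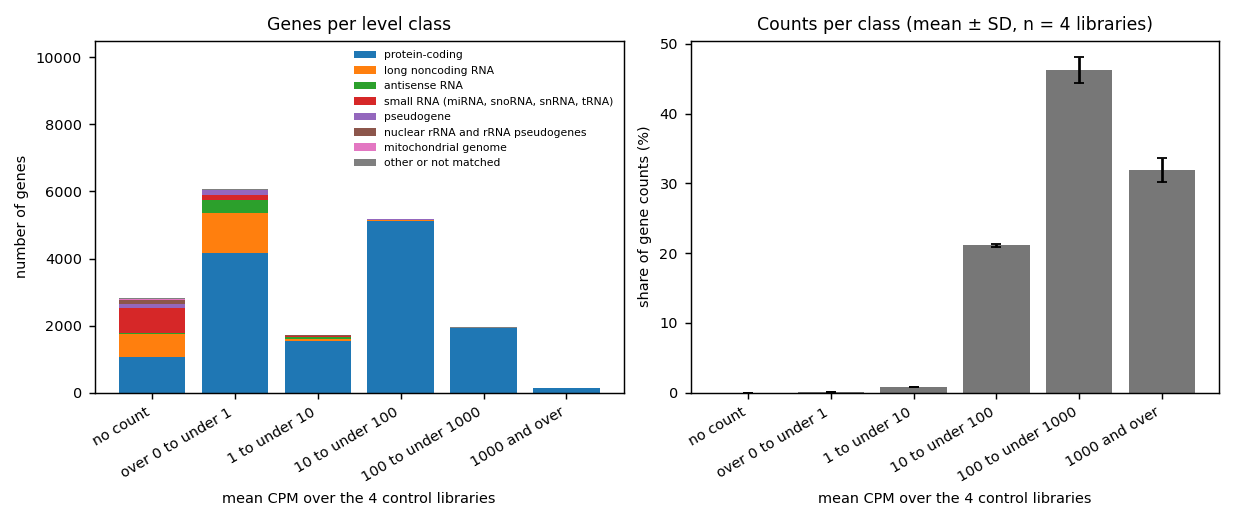
Left, the number of genes in each class of mean CPM over the 4 control libraries, coloured by kind of gene; right, the share of gene counts (%) in each class, with bars for the mean and lines for the SD over 4 libraries. The 149 genes at 1000 CPM and over are the shortest bar on the left and hold 31.9% of counts on the right.

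Protein-coding genes made up 8399 of the detected genes, which is 60.3% of the 13933 protein-coding genes, and took 91.6% of counts. Long noncoding RNA genes were detected in 95 of 1989 cases (4.78%) and antisense RNA genes in 47 of 502. Of 893 small RNA genes (miRNA, snoRNA, snRNA and tRNA) 3 were detected, and of 311 pseudogenes 25. Long noncoding RNA genes took 1.75% of counts. Among them cherub had the largest share of reads (FBgn0262972; Release 6, 3R:11247631-11256123). It is an RNA of neuroblasts that is handed on unevenly when they divide, and it had 4607, 6843, 5590 and 7171 CPM in libraries 1, 2, 3 and 4, with libraries 2 and 4 above libraries 1 and 3. The noncoding RNA genes CR42862 and CR34335 were also among the 20 genes of highest mean, with 2523 to 4430 CPM and 2332 to 3508 CPM. The noncoding gene noe (FBgn0026197; 3L:17400272-17401348) had 473, 1167, 1385 and 2268 CPM, a 4.79-fold spread with library 1 the lowest and library 4 the highest.

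The class at 1000 CPM and over was mostly the equipment of protein synthesis and the cytoskeleton. Of its 149 genes 65 encode cytosolic ribosomal proteins, 5 are translation factors and 5 are nuclear ribosomal RNA genes. Among genes that are neither ribosomal RNA nor mitochondrial, the elongation factor gene eEF1alpha1 had the highest share of reads, with 11428, 7528, 10488 and 9061 CPM in libraries 1, 2, 3 and 4. Library 2 was the lowest and library 1 the highest. The cytoplasmic actin gene Act5C had 7452, 6819, 7325 and 7332 CPM, and its libraries lay within 1.09-fold. The tubulin genes alphaTub84B and betaTub56D, subunits of microtubules, averaged 5008 ± 257 and 4042 ± 319 CPM (SD, n = 4 each). Hsc70-4, the constitutive chaperone, averaged 4471 ± 537 CPM, and the poly(A)-binding protein gene pAbp averaged 5188 ± 334 CPM.

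Genes with nervous-system roles stood beside this equipment in the same class. The class held 47 genes that were in none of the functional lists. Obp44a, an odorant-binding family gene expressed in glia, had 6524, 7790, 5966 and 6540 CPM in libraries 1, 2, 3 and 4. These values spanned 1.31-fold, with library 2 the highest. The homeobox gene pros, whose protein passes into the daughter of a neuroblast and ends its self-renewal, had 2975, 6747, 3793 and 6565 CPM. Libraries 2 and 4 were both above libraries 1 and 3, and the highest was 2.27-fold the lowest. The axonal gene fax (failed axon connections) averaged 3700 ± 487 CPM, the chromatin decondensation gene Df31 averaged 3164 ± 230 CPM, and the signalling adaptor gene 14-3-3epsilon averaged 3051 ± 103 CPM (SD, n = 4 each). By name, the 5 CG-numbered genes of highest mean were CG10077, CG2852, CG13928, CG45050 and CG30122, with means of 618 to 1099 CPM.

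Housekeeping lists were detected for the most part, where 60.3% of all protein-coding genes were. Of 88 cytosolic ribosomal protein genes 83 were detected, at a list median of 1247 CPM, and together they took 11.1% of counts. The 5 not detected in all libraries were second copies of a ribosomal protein gene, among them RpL10Aa at 0.00700 CPM and RpS19b at 1.13 CPM. All 73 mitochondrial ribosomal protein genes were detected at a median of 21.6 CPM, and all 32 proteasome subunits at a median of 194 CPM. Of 51 translation factors 42 were detected, while eIF4E3 to eIF4E7, further copies of the cap-binding protein gene eIF4E1, were all under 1 CPM. The nuclear genes of the respiratory chain and ATP synthase were detected in 65 of 86 cases. Of the heat-shock-inducible list, Hsp23 and Hsp27, small chaperones also made in development, averaged 1653 ± 284 and 2122 ± 164 CPM. The 6 Hsp70 copies, which are made on heat stress, had means of 0 to 7.74 CPM. The quantifier may divide reads between these copies, so the level of a single copy is uncertain. None of the 111 repeated histone genes was detected as a single copy, but the quantifier may divide reads between near-identical copies. In sum the 23 His2B copies had 10.9 to 11.9 CPM, so the family is not absent at 1 CPM. The median of the repeated histone list was 0 and its summed level was 27.7 to 34.4 CPM. The replacement histone gene His3.3B averaged 2616 ± 159 CPM. Whether the library preparation captured both kinds of histone RNA alike was not tested, so these levels do not compare their expression.

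**Figure D2:**
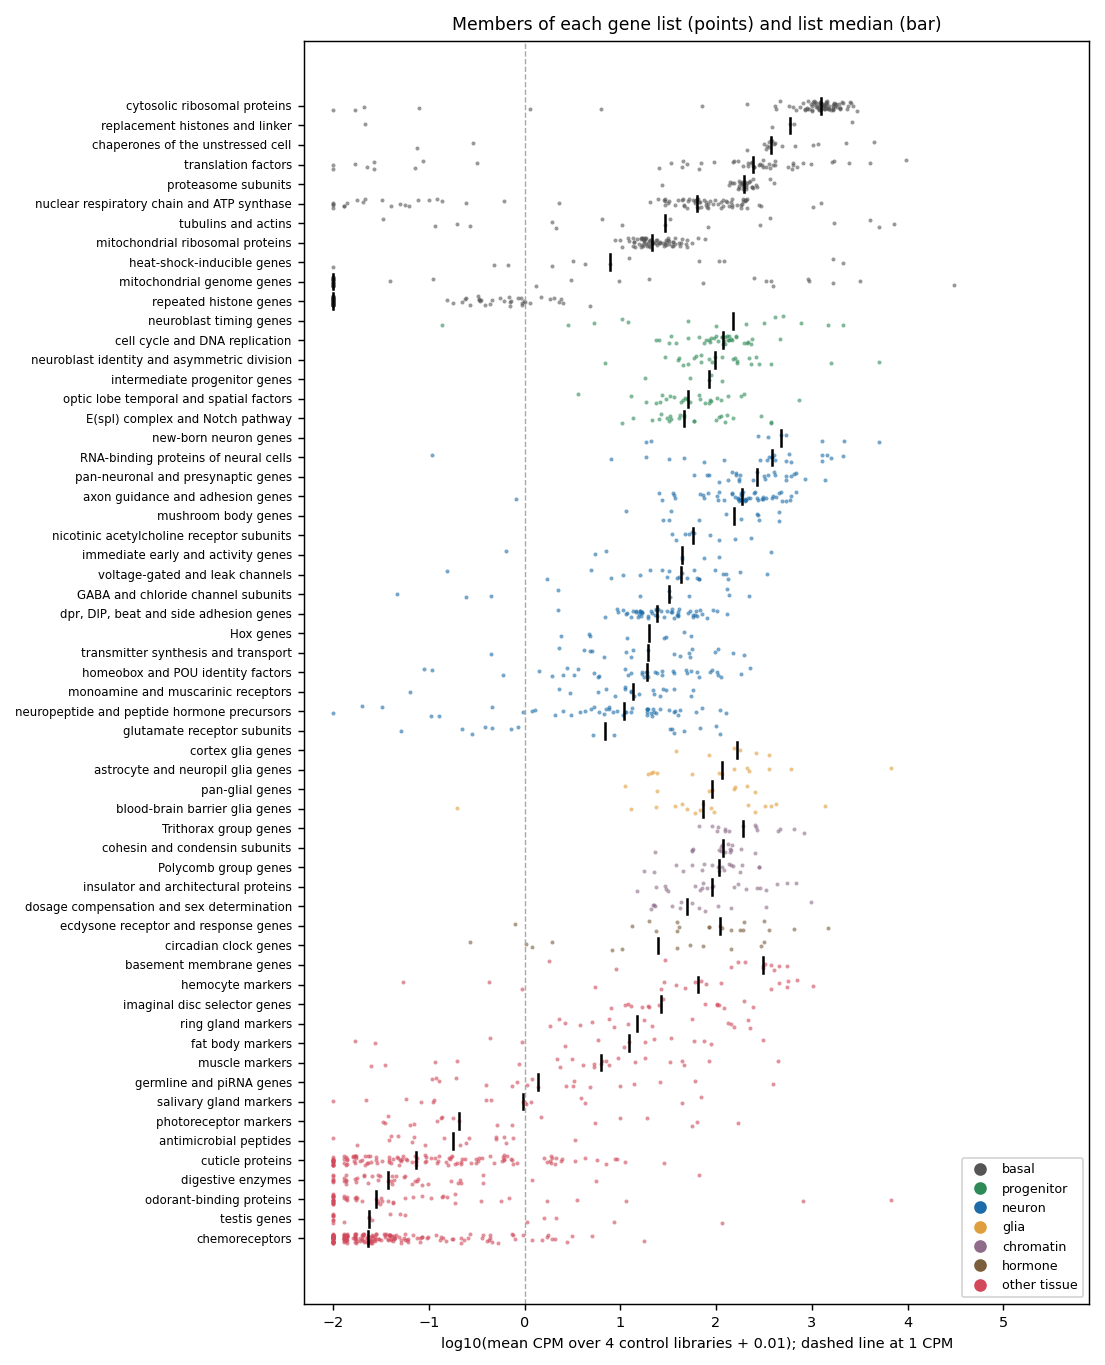
Each point is a member of a gene list at log10(mean CPM over the 4 control libraries + 0.01), black bars are list medians, colours give the role of the list, and the dashed line is at 1 CPM. The median is 1247 CPM for cytosolic ribosomal proteins and under 0.1 CPM for chemoreceptors, odorant-binding proteins and digestive enzymes.

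Of the 6 progenitor lists 5 were detected in full, and the list of neuroblast timing genes in 13 of 14 cases. All 25 neuroblast identity and asymmetric division genes were detected at a median of 96.6 CPM, and all 35 cell cycle and DNA replication genes at a median of 117 CPM. For comparison, 48.2% of all genes and 60.3% of protein-coding genes were detected. The adaptor gene mira, which carries fate determinants to one side of the dividing neuroblast, had 240, 295, 242 and 278 CPM in libraries 1, 2, 3 and 4, a spread of 1.23-fold. The growth repressor gene brat, which mira protein carries with pros, had 1130, 2086, 1291 and 1826 CPM, with libraries 2 and 4 the highest. The cell cycle genes at the top of their list were E2f1, a transcription factor of S phase, at 461 ± 38.4 CPM, the phosphatase gene stg at 235 ± 26.1 CPM, and CycA at 232 ± 31.3 CPM (SD, n = 4 each). PCNA, the sliding clamp of DNA replication, averaged 163 CPM.

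The genes that time neuroblast lineages were present unevenly. The RNA-binding protein genes Imp and Syp mark early and late neuroblasts. Imp had 366, 502, 385 and 403 CPM and Syp had 1913, 2132, 2197 and 2320 CPM in libraries 1, 2, 3 and 4. Both genes were therefore present in each library, Imp within 1.37-fold and Syp within 1.21-fold. The first factors of the embryonic temporal series were low, hb at 2.85 CPM and Kr at 10.3 CPM, while cas, a later one, had 75.2 to 139 CPM. The transcription factor genes chinmo and mamo, which give neurons their birth-order identity, spanned 314 to 700 and 457 to 1242 CPM, and both were highest in library 2. The ecdysone-induced factor gene br had 1241, 1501, 1545 and 1549 CPM. All 26 optic lobe factors were detected at a median of 51.5 CPM, led by hth at 733 ± 45.6 CPM, bi at 196 ± 35.3 CPM and the Pax6 gene toy at 182 ± 5.34 CPM. All 5 intermediate progenitor genes were detected, with ham at 114 ± 17.3 CPM and erm at 88.6 ± 24.4 CPM. All 24 genes of the E(spl) complex and the Notch pathway were detected at a median of 46.2 CPM. Beside these full lists, 60.3% of all protein-coding genes were detected.

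Neuronal genes were detected across nearly every class of function, where 60.3% of all protein-coding genes were detected. All 25 pan-neuronal and presynaptic genes were detected at a median of 266 CPM, and all 9 genes of new-born neurons at a median of 473 CPM. The active-zone scaffold gene brp, a marker outside the naming rule, had 190, 594, 295 and 516 CPM in libraries 1, 2, 3 and 4. Libraries 2 and 4 were above libraries 1 and 3, and library 2 was 3.13-fold library 1. The amyloid precursor-like gene Appl averaged 857 ± 311 CPM, and the neural cadherin gene CadN had 308, 1077, 510 and 832 CPM in the same library order. Of the new-born neuron list, hdc averaged 2181 ± 638 CPM and the elav-family gene fne averaged 1284 ± 464 CPM.

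For transmitters, 18 of 19 genes of synthesis and transport were detected. VGlut, the vesicular glutamate transporter, averaged 195 ± 63.5 CPM, VAChT, that for acetylcholine, 149 ± 57.6 CPM, and Vmat, that for monoamines, 105 ± 58.5 CPM (SD, n = 4 each). Genes of aminergic cells were present too, with the tyrosine hydroxylase gene ple, of dopamine synthesis, at 4.12 CPM and the serotonin synthesis gene Trh at 9.46 to 17.5 CPM. All 10 nicotinic receptor subunits were detected at a median of 56.9 CPM. The subunit gene nAChRalpha6 (FBgn0032151; 2L:9793317-9886250) had 117, 429, 127 and 245 CPM in libraries 1, 2, 3 and 4. Of 16 glutamate receptor subunits 9 were detected (56.2%), near the 60.3% of all protein-coding genes. The subunits of the neuromuscular junction, GluRIIA to GluRIIE, which sit in muscle, were all under 1 CPM, while the kainate-type subunit KaiR1D averaged 111 ± 44.3 CPM and the glutamate-gated chloride channel GluClalpha averaged 100.4 ± 56.4 CPM.

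Of the remaining receptors and channels, 8 of 11 genes of the GABA and chloride channel list were detected. So were 19 of 20 monoamine and muscarinic receptors and 23 of 24 voltage-gated and leak channels, where 60.3% of protein-coding genes were. The GABA list is not made of channels only, since it holds the metabotropic receptor gene GABA-B-R2 at 136 CPM. It also holds SsRbeta, a signal sequence receptor gene and no channel, at 129 CPM. The GABA receptor gene Rdl averaged 218 ± 117 CPM, the dopamine and ecdysteroid receptor gene DopEcR 57.2 ± 23.5 CPM, and the potassium channel gene Sh 343 ± 202 CPM. The histamine-gated channel gene ort, used by targets of photoreceptors, was at 0.0362 CPM. Of 48 peptide precursors 40 were detected, at a median of 10.9 CPM. Nplp1 led the list at 127 ± 15.3 CPM, followed by Proc at 111 ± 18.3 CPM and ITP at 71.0 ± 6.66 CPM. The insulin-like peptide gene Ilp2 had 60.1, 87.3, 50.9 and 50.4 CPM, and Ptth, which drives ecdysone release through a few brain neurons, had 2.97 to 7.99 CPM.

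Cell-surface genes of the families that label synaptic partners were detected as a full set, where 60.3% of all protein-coding genes were. All 54 dpr, DIP, beat and side genes were detected, 48 of them between 10 and 100 CPM, at a median of 23.9 CPM. The wider list of axon guidance and adhesion genes had 49 of 50 detected at a median of 188 CPM, with the neuroglian gene Nrg at 600 ± 66.3 CPM and the teneurin gene Ten-a at 585 ± 198 CPM. Of 40 homeobox and POU identity factors 37 were detected at a median of 18.9 CPM, led by pdm3 at 228 ± 48.5 CPM. All 8 Hox genes were detected. Hox genes of the trunk are expressed along the ventral nerve cord, and Antp had 56.9, 45.6, 58.1 and 59.3 CPM, abd-A had 42.8, 51.8, 38.5 and 51.2 CPM and Ubx had 22.1 to 33.5 CPM. Scr, a Hox gene of the labial and first thoracic segments, had 45.1, 11.1, 39.6 and 24.9 CPM, and library 2 was the lowest. All 12 mushroom body genes were detected, among them the adhesion gene Fas2 at 456 ± 58.2 CPM and the phosphodiesterase gene dnc at 278 ± 102 CPM.

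Glial lists were likewise detected almost in full, where 60.3% of all protein-coding genes were detected. All 9 pan-glial, all 13 astrocyte and neuropil, and all 6 cortex glia genes were detected, with medians of 91.5, 116 and 166 CPM. Of 17 blood-brain barrier genes 16 were detected at a median of 73.4 CPM. The glutamine synthetase gene Gs2, which recycles glutamate in glia, had 193, 331, 175 and 149 CPM in libraries 1, 2, 3 and 4, and library 2 was the highest. The engulfment receptor gene drpr had 128, 131, 216 and 162 CPM, with library 3 the highest. The septate junction genes cora and Nrx-IV averaged 422 ± 51.8 and 379 ± 48.1 CPM, and the barrier receptor gene moody had 35.0 to 40.1 CPM.

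Chromatin gene lists were detected without exception, where 60.3% of all protein-coding genes were detected. All 21 insulator and architectural protein genes, all 16 cohesin and condensin subunits, all 19 Polycomb group genes and all 15 Trithorax group genes were detected, with medians of 90.2, 119, 108 and 192 CPM. Of the architectural list, mod(mdg4) and pzg averaged 678 ± 27.6 and 545 ± 15.3 CPM, and CTCF, a zinc-finger insulator protein, averaged 68.1 ± 1.44 CPM. CG11504 is itself a member of this list. Among dosage compensation and sex determination genes all 14 were detected. The lncRNA roX1 (X:3857230-3862697), which coats the male X chromosome, had 678, 1628, 702 and 895 CPM, and roX2 (X:11579065-11580432) had 18.7, 37.6, 12.5 and 18.6 CPM. Library 2 was the highest for both. The msl-2 gene, whose protein is made in males, had 56.1 to 82.3 CPM.

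Of the ecdysone receptor and response genes 18 of 19 were detected, where 60.3% of all protein-coding genes were. The receptor gene EcR had 172 to 227 CPM and the nuclear receptor gene Eip75B averaged 658 ± 169 CPM. Core clock genes were low: tim had 0.944 to 2.85 CPM, per 7.40 to 14.5 CPM and Clk 0.173 to 0.430 CPM. Of their list 8 of 12 genes (66.7%) were detected, near the share of protein-coding genes. The kinase genes sgg and dco of the same list, which act in many cells, averaged 319 ± 17.0 and 295 ± 16.7 CPM.

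By chromosome arm, protein-coding genes were detected in 56.2% (2L), 59.5% (2R), 60.0% (3L), 61.0% (3R) and 64.9% (X) of cases, against 60.3% over all. On the small chromosome 4, 77 of 80 genes were detected (96.2%). None of 24 protein-coding genes of the Y chromosome was detected, and 16 of them had no count.

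Lists of other organs differed widely in how many members were detected. Of 186 chemoreceptor genes 6 were detected, of 121 cuticle protein genes 12, of 45 digestive enzyme genes 2, and of 51 odorant-binding protein genes 4. For comparison, 48.2% of all genes and 60.3% of protein-coding genes were detected. The chemoreceptor Ir76a had 14.2 to 20.5 CPM, and Or43b 4.39 to 5.69 CPM. None of 18 antimicrobial peptide genes was detected in each library. Of 19 photoreceptor genes 4 were at 10 CPM or more, among them norpA, a phospholipase of phototransduction that other neurons also use, at 168 ± 24.5 CPM. All 16 imaginal disc selector genes were detected, but 5 of them (Dll, al, ap, en and nub) are also in the lists of neuronal or optic lobe factors. Of 23 muscle genes 16 were detected, of 15 fat body genes 10, of 19 germline genes 10 and of 13 basement membrane genes all. All 16 ring gland genes were detected, with the ecdysone synthesis genes phm at 285, 105, 248 and 272 CPM and spok at 185, 74.3, 164 and 188 CPM. Library 2 was the lowest for both.

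Hemocyte genes were present and uneven. Of 18 markers 14 were detected (77.8%), where 60.3% of all protein-coding genes were. None of the 18 is in a neuronal, progenitor, glial or chromatin list. The hemolectin gene Hml (3L:13846054-13860001), a clotting factor of larval hemocytes, had 406, 27.8, 1436 and 362 CPM in libraries 1, 2, 3 and 4. The prophenoloxidase gene PPO2, which crystal cells make for melanin, had 951, 67.9, 2219 and 881 CPM. In both, library 3 was the highest and library 2 the lowest by far. The fat body storage gene Lsp2 had 12.02, 6.01, 53.0 and 64.9 CPM, and Fbp1, which takes storage protein into fat body, had 13.9, 17.3, 102 and 103 CPM, so that libraries 3 and 4 were above libraries 1 and 2. The 3 genes of highest mean in the fat body list did not share that order. The lipophorin gene apolpp had 209, 330, 295 and 394 CPM, Cbs, of cysteine synthesis, had 106, 77.0, 88.5 and 80.8 CPM, and the desaturase gene ifc had 72.5, 69.0, 82.4 and 75.0 CPM. The muscle myosin gene Mhc had 27.5, 43.4, 62.0 and 52.3 CPM.

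Agreement between libraries was read over the 9009 genes at a mean of 1 CPM or more, on log2(CPM + 0.5). Pearson's r across these genes was 0.950 for libraries 1 and 2, 0.984 for 1 and 3, 0.972 for 1 and 4, 0.946 for 2 and 3, 0.975 for 2 and 4 and 0.978 for 3 and 4. Genes are not independent replicates, so these values describe the libraries and carry no p. Between libraries 1 and 3, 85.7% of genes had the higher value at most 25% above the lower, and 193 genes (2.14%) differed by more than 2-fold. Between libraries 1 and 2, 53.4% did so, and 1092 genes (12.1%) differed by more than 2-fold. Libraries 2 and 4 were the second closest pair by this share, at 79.7%. By the median absolute log2 difference they were the closest, at 0.120 against 0.148 for libraries 1 and 3. Without library 2 the lowest of the correlations was 0.972.

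**Figure D3:**
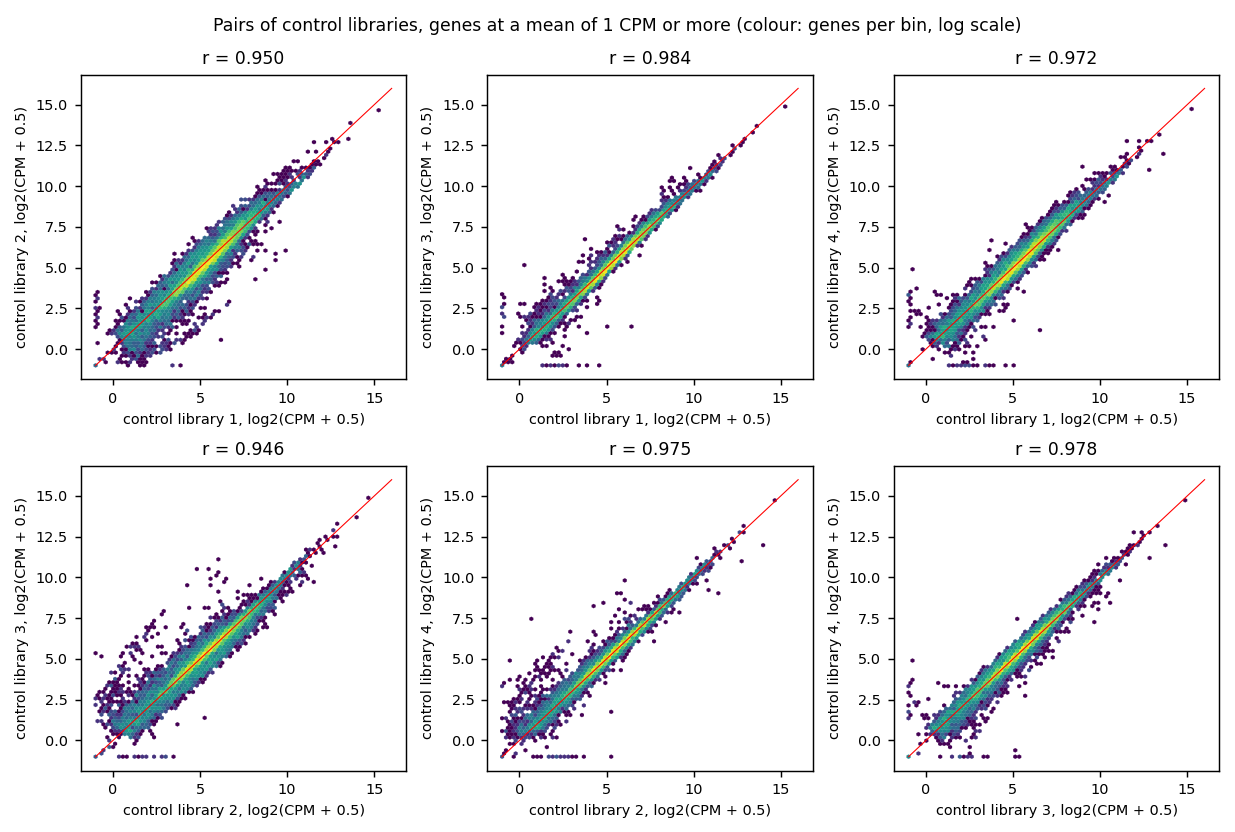
Each panel plots log2(CPM + 0.5) of 9009 genes in a pair of control libraries, coloured by the number of genes per bin on a log scale, with the line of equal values in red and Pearson's r above it. Libraries 1 and 3 have the highest correlation (r = 0.984) and libraries 2 and 3 the lowest (r = 0.946), with a group of genes high in library 3 and low in library 2.

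Gene by gene, the spread was larger than counting error. Of 7283 genes at a mean of 10 CPM or more, 858 (11.8%) varied, meaning that the highest library was more than 2-fold the lowest, and 3592 (49.3%) were steady, with the highest library under 25% above the lowest. The median coefficient of variation was 10.1%, where counting alone gives 1.66%. The common biological coefficient of variation from edgeR was 0.254. Without library 2 it was 0.196, and 276 genes varied. Among the 858 varied genes the order 2, 4, 3, 1 from high to low accounted for 343 genes (40.0%), where it held for 17.3% of all 7283 genes. Its reverse 1, 3, 4, 2 accounted for 173 (20.2%), near the 21.8% over all genes, and the order 3, 1, 4, 2 for 165 (19.2%), against 7.48% over all.

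Neuronal lists held many of the genes with library 2 on top. Over all 7283 genes, 30.4% were highest in library 2 and 28.5% lowest in library 1. All 50 dpr, DIP, beat and side genes at 10 CPM or more were highest in library 2, and 35 of them varied. The same held for all 14 monoamine and muscarinic receptors, 9 of 10 nicotinic subunits, 18 of 20 voltage-gated and leak channels and 22 of 25 pan-neuronal genes. The potassium channel gene Sh had 157, 606, 216 and 394 CPM in libraries 1, 2, 3 and 4, and the sodium channel gene para had 94.5, 308, 108 and 203 CPM. Both para and the channel gene cac are also in the pan-neuronal list, so the channel and pan-neuronal counts overlap. The mean of log2(CPM + 0.5) over the 10 nicotinic subunits was 5.45, 6.53, 5.72 and 6.32 in libraries 1 to 4, a range of 1.08.

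Ribosomal protein genes had the reverse order. Over all genes, 41.9% were highest in library 1 and 41.5% lowest in library 2. Of the 82 ribosomal protein genes at 10 CPM or more, all 82 were highest in library 1, 81 were lowest in library 2, and 80 had the full order 1, 3, 4, 2. None of them passed the 2-fold limit. RpL3, a protein of the large subunit, had 3406, 2474, 3111 and 2860 CPM. The list mean of log2(CPM + 0.5) was 10.28, 9.81, 10.06 and 9.97 in libraries 1 to 4, a range of 0.47, and without library 1 the range was 0.25. All 71 mitochondrial ribosomal proteins and all 64 respiratory chain genes at 10 CPM or more were highest in library 1 as well. Cell cycle genes leaned the same way, with 25 of 35 highest in library 1 and 28 of 35 lowest in library 2. Ribosomal RNA took 2.50%, 2.86%, 2.49% and 0.904% and mitochondrial genes took 4.87%, 3.27%, 3.90% and 3.48% of counts in libraries 1 to 4. Their part in the order of the nuclear genes was not tested.

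Hemocyte and matrix genes were among those with library 3 on top. Over all genes 15.1% were highest in library 3, while all 14 hemocyte genes at 10 CPM or more were, and 13 of them were lowest in library 2. The list sum was 3562, 475, 9232 and 3227 CPM in libraries 1 to 4. The list mean of log2(CPM + 0.5) was 6.76, 4.00, 7.86 and 6.60, a range of 3.86. Without library 2 the range was 1.20, with the members at 1 CPM or more picked anew from the remaining libraries. All 11 basement membrane genes at 10 CPM or more were highest in library 3 and 10 were lowest in library 2. The collagen gene Col4a1, which hemocytes and fat body deposit on organs, had 418, 66.8, 1292 and 418 CPM. It is in both lists, as is the peroxidasin gene Pxn, so the counts of the hemocyte and basement membrane lists overlap. The papilin gene Ppn had 279, 50.3, 754 and 149 CPM, and the matrix gene Glt had 266, 19.2, 709 and 290 CPM. Of the 7 muscle genes at 10 CPM or more 6 were also highest in library 3, the myosin light chain gene Mlc2 among them at 12.6, 7.25, 42.6 and 9.52 CPM.

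Library 4 was highest for 12.5% and lowest for 8.75% of all genes, and library 3 was lowest for 21.3%. The ring gland list was highest in library 4 for 7 of 9 genes at 10 CPM or more, and the fat body list for 5 of 9. The mean of log2(CPM + 0.5) over the fat body list was 4.36, 3.78, 4.89 and 5.13 in libraries 1 to 4. The innate immunity gene Sting had 52.1, 98.5, 187 and 197 CPM, so that libraries 3 and 4 were above libraries 1 and 2 as in Fbp1 and Lsp2.

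**Figure D4:**
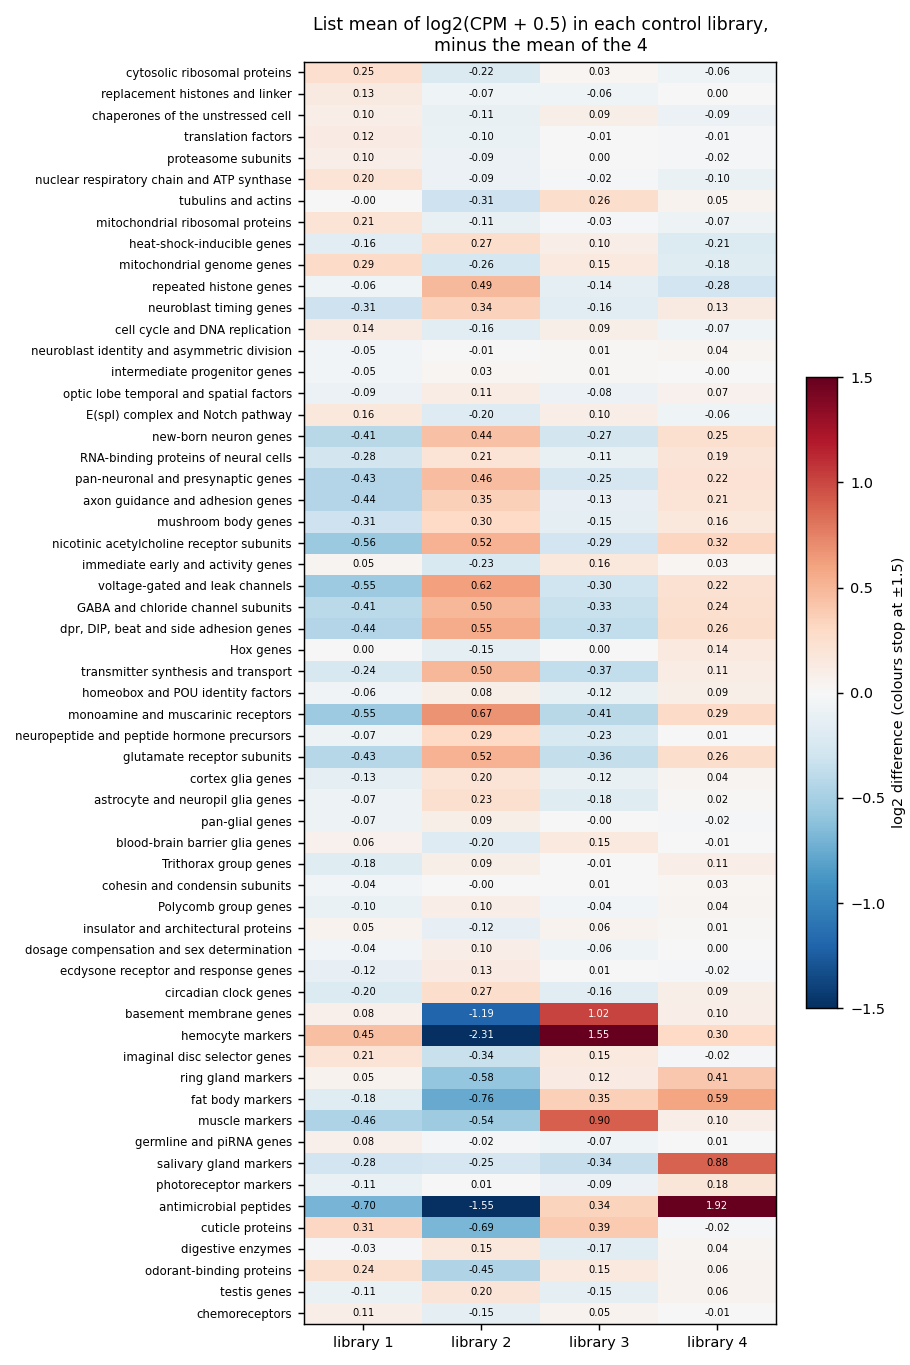
For each gene list, the mean of log2(CPM + 0.5) over members at 1 CPM or more in each control library, minus the mean of the 4 libraries; red is higher, blue is lower, and colours stop at 1.5. Most neuronal lists, though not the Hox and immediate early lists, are red in libraries 2 and 4, ribosomal and respiratory lists in library 1, and hemocyte and basement membrane lists in library 3.

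Some lists held many steady genes. Of 21 insulator and architectural protein genes 19 were steady, as were 13 of 16 cohesin and condensin subunits, 13 of 19 Polycomb group genes and 30 of 32 proteasome subunits, where 49.3% of all genes were. The small differences still had an order in the proteasome and Polycomb lists. Of 32 proteasome genes 29 were highest in library 1 and 29 lowest in library 2, against 41.9% and 41.5% of all genes. Of 19 Polycomb genes 13 were highest in library 2 and 11 lowest in library 1, against 30.4% and 28.5%. The highest library was mixed in the others. Libraries 1 to 4 were highest for 7, 7, 4 and 3 insulator genes and 3, 3, 4 and 6 cohesin and condensin genes. The means of log2(CPM + 0.5) over the neuroblast and intermediate progenitor lists ranged by 0.09 and 0.08 between libraries, but their members went different ways. Only 9 of 24 neuroblast genes and 1 of 5 intermediate progenitor genes were steady, with pros at 2.27-fold and erm at 1.79-fold. The 4 genes with the smallest ratios, at 10 CPM or more, were slmb, CG10916, Dpm2 and TER94. CG10916 has no name, and Dpm2 is a subunit gene of an enzyme of dolichol sugar transfer. They had 13.6 to 13.7 and 19.7 to 19.9 CPM. The values of slmb, an F-box subunit of a ubiquitin ligase, were 117, 117, 118 and 117 CPM, and those of TER94, the p97 segregase of protein turnover, were 914, 919, 919 and 924 CPM. The actin regulator gene capt had 546, 544, 548 and 551 CPM, and the SNARE gene Syx7 had 54.5, 54.6, 55.2 and 54.8 CPM. These ratios are among the lowest of 7283 genes. For slmb, CG10916, Dpm2 and Syx7 the coefficient of variation was under the value that counting alone gives. For TER94 and capt it was just above, at 0.455% against 0.394% and 0.551% against 0.510%.

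**Figure D5:**
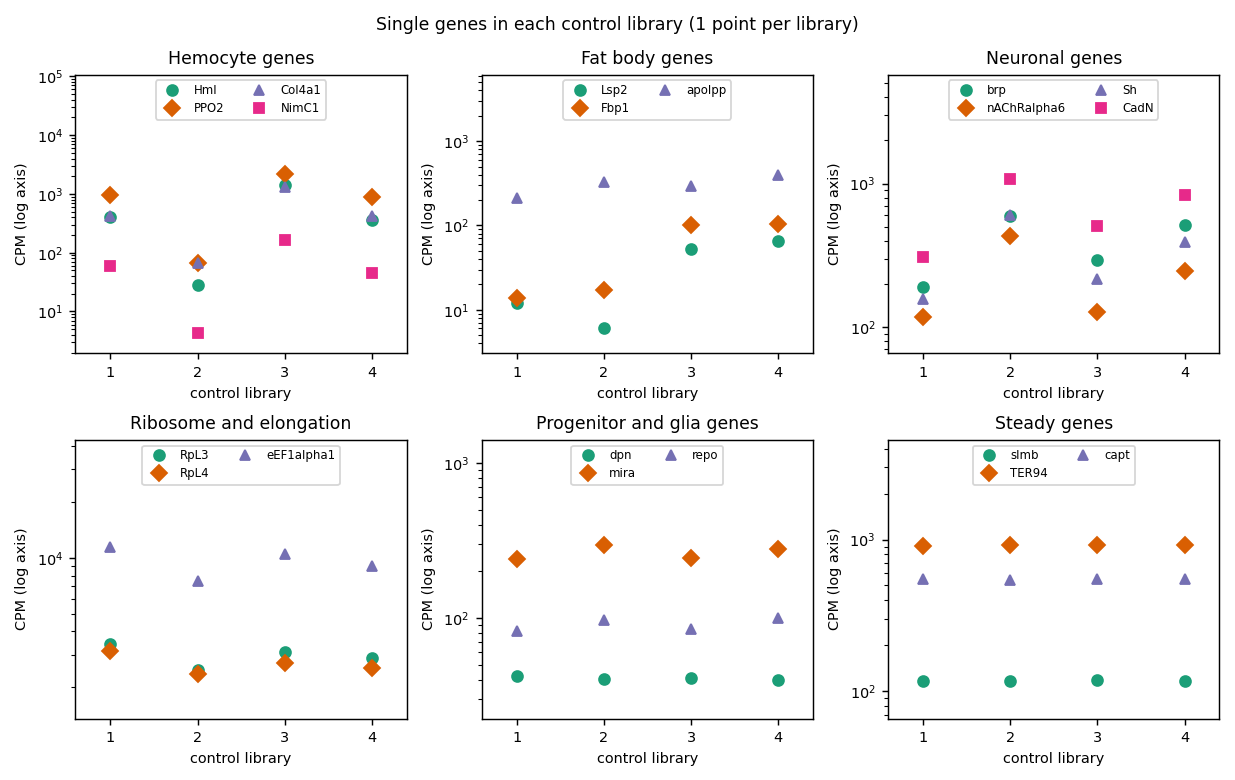
CPM on a log axis in control libraries 1 to 4, 1 point per gene and library, for hemocyte, fat body, neuronal, ribosome and elongation, progenitor and glial, and steady genes. Hml runs from 27.8 CPM in library 2 to 1436 CPM in library 3, nAChRalpha6 from 117 CPM in library 1 to 429 CPM in library 2, and slmb stays between 117 and 118 CPM.

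Some of the largest ratios lay in genes with a near-identical copy, where the quantifier may divide reads between copies. The glutathione synthase genes Gss1 and Gss2 are neighbours on the X chromosome. Gss1 had 33.2, 37.1, 34.6 and 0 CPM, and Gss2, chosen after its values were seen, had 33.9, 25.6, 32.7 and 64.8 CPM in libraries 1 to 4. Their sum was 67.1, 62.6, 67.3 and 64.8 CPM, within 1.07-fold, so the zero of Gss1 in library 4 was met by a higher value of Gss2. The 23 copies of the histone gene His2B gave 11.9, 10.9, 11.5 and 11.0 CPM in sum, but His2B:CG33876 alone held 10.1 CPM in library 1, His2B:CG33870 held 8.95 and 10.2 CPM in libraries 2 and 3, and His2B:CG33906 held 9.44 CPM in library 4. Levels of single members of such families are uncertain. Outside such families, CG9021, a gene without a name, had 92.0, 6.06, 2.06 and 1.84 CPM, with library 1 far above the other three.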

How the data were processed

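Total RNA of 4 control brain libraries was sequenced by the submitters. The authors deposited estimated counts per gene, unscaled, 1 column per library, in a table whose name gives salmon as the quantifier. BWA and dm6 are listed per the submitters' processing notes without an assay. Not given in the sources used here are salmon's version, how strand was set and which annotation release was used, so an antisense gene and its partner are uncertain. The 4 columns of the other genotype were not used. The 6383 rows that are no genes were left out of totals.

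CPM were computed as counts per 1000000 gene counts with pandas 2.3.3 and numpy 2.4.6 in Python 3.11.15. Of 17895 genes, 17602 were matched to RefSeq Release 6 by symbol and 246 by a unique synonym. Of the detected genes, 7439 had whole counts (tolerance 0.01) in each library and 1192 a fractional one. Counts were rounded for the dispersion fit of edgeR 4.0.16 in R 4.3.3, an intercept model over 9831 genes. Figures were drawn with matplotlib 3.10.9. The calculations were tested on simulated data. No test between groups was run, since there is 1 group; Dixon's ratio was used to pick out single libraries.

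The libraries and the 60 gene lists were chosen with earlier results of these data known, and list symbols were matched to the table after it was read. Genes named are the 20 of highest mean (no ribosomal or mitochondrial RNA), up to 3 of highest mean per list plus defining markers, the 10 of highest and 10 of lowest ratio between libraries, the 5 highest and 5 lowest per library against the median of the others, y, w, CG11504, roX1, roX2, and the top 5 noncoding and CG-numbered genes. Other list members named in the text (Imp, chinmo, Ilp2, CTCF, Clk and the like) were chosen after their values were seen, for their known roles. Alternatives were TMM and RLE scaling, totals without ribosomal and mitochondrial RNA, each library left out, and other thresholds and pseudocounts. Transcript lengths and promoter sequences were not used here.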

Additional observations from a re-analysis of the deposited data

Results flagged for a closer look

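For each printed gene, list mean and library total, the gap of the highest or the lowest library to its nearest neighbour was divided by the range of the 4 libraries, and values above Dixon's critical value for 4 samples are given here. Chance gives about 1 in 20 for values not chosen for their spread. Some of the genes were named because a library lay far from the others, so their number is no measure against chance. Of 155 genes 10 passed, and of 60 list means 2.

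Library 1 was the highest for CG9021 (gap share 0.953) and the histone copy His2B:CG33876 (1.0), and the lowest for the neuroglian gene Nrg (0.873) and the ecdysone-induced gene br (0.842). Library 2 was the highest for the germline gene vas (0.939) and the lowest for the mean over all genes (0.967), where the list means differed by 0.08 on the log2 scale. Library 3 was the highest for the muscle gene Mlc2 (0.850) and for slmb (0.924). For slmb and vas the spread lay within counting error, with a coefficient of variation of 0.388% in slmb, where counting alone gives 1.10%, and of 10.8% in vas, where it gives 13.9%. Library 4 was the lowest for Gss1 (0.897) and the highest for the copy His2B:CG33906 (1.0), the salivary glue gene Sgs3 (0.931) and the mean of the salivary gland list (0.927).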

How the results depend on the processing

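Of 107 values under alternatives, 98 moved by less than the limits set for them. The exceptions follow. The lowest correlation between libraries was 0.926 over genes at 10 CPM or more and 0.984 over all genes with a count. Varied genes numbered 1573 at a minimum of 1 CPM and 210 at 100 CPM, and steady genes 966 at 100 CPM. With each library left out in turn, the lowest correlation was 0.945 to 0.972 and varied genes numbered 276 to 843. The range of the hemocyte list was then 1.20 to 3.86 and that of the ribosomal protein list 0.247 to 0.470. List members at 1 CPM or more were picked anew in each of these settings. TMM and RLE scaling kept the highest and lowest library of 53 of 59 lists, and totals without ribosomal and mitochondrial RNA those of 51. The last setting moved the median of all genes by 0.06 to 0.11 on the log2 scale. The causes were not tested. No paired analysis was possible because there is 1 group and no test. Levels per kb of transcript and promoter motifs were not run.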

Other observations

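Antimicrobial peptide genes were under the detection threshold as a list, and their values differed between libraries. The diptericin gene DptA had 1.09, 0.381, 2.77 and 9.28 CPM in libraries 1, 2, 3 and 4, and the metchnikowin gene Mtk had 0, 0.0492, 0.535 and 2.43 CPM. Library 4 was the highest for both, as it was for the salivary glue gene Sgs3 at 2.28, 1.77, 2.11 and 9.20 CPM. The peptide precursor gene Nplp2 had 25.1, 1.82, 53.9 and 6.56 CPM, with library 3 the highest and library 2 the lowest. Of the 25 peptide precursor genes at 10 CPM or more, 20 were highest in library 2, against 30.4% of all genes, and 2 in library 3. The cytochrome gene Cyp4g1 had 52.5, 17.2, 52.5 and 11.5 CPM.

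The 2 genes for 7SL RNA, the RNA of the signal recognition particle, had 20.7, 12.5, 58.4 and 29.4 CPM (CR32864) and 30.6, 40.7, 2.20 and 3.03 CPM (CR42652) in libraries 1 to 4. Their sum was 51.3, 53.2, 60.6 and 32.4 CPM, so that part of the spread of each copy was met by the other.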
